A study of Drosophila melanogaster with 4 samples.

Results

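The cell death genes hid, grim, rpr and skl form a cluster at band 75C of chromosome arm 3L in Drosophila melanogaster. They were examined here for histone H3 monomethylated at lysine 27 (H3K27me1) through a fixed window of FlyBase release 5, 3L:18150000-18430000, a length of 280 kb. The window was chosen from earlier results of these data, so its coverage, its region scores and its free stretch are described without a test. Of the enriched regions of the study, the window was touched by 4 of the 8209 of replicate 1 and by 3 of the 6901 of replicate 2. Of the 12362 regions listed for the whole series, it was touched by 11.

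The data come from chromatin immunoprecipitation and sequencing of larvae of the third instar from the wild-type Oregon-R strain, with a rabbit polyclonal antibody against H3K27me1 from Millipore. Both ChIP replicates have their own list of enriched regions, and a further one belongs to the series as a whole, so 3 lists were read for the 2 replicates. The 2 input samples are not analysed here, and no treatment or mutant was compared. The labels do not say whether the replicates came from separate collections of larvae, and their spread may be technical. Larvae hold many tissues, so a region marked in few cells cannot be told apart from one marked weakly in all of them.

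The proteins Hid, Grim, Reaper (rpr) and Sickle (skl) start apoptosis in the fly by binding inhibitor of apoptosis proteins such as Diap1, which frees the caspases that dismantle the cell. Each carries a short motif at its start that docks on those inhibitors. The genes are controlled largely through their transcription: rpr and hid are switched on by the steroid hormone ecdysone in larval tissues that die at metamorphosis, and both also respond to DNA damage. H3K27me1 is laid down on the same histone residue as the trimethyl mark of Polycomb silencing, and the enzyme E(z) can make both.

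All 4 genes were matched in a RefSeq gene table, which is on release 6 and was used for names and neighbours only. In that table their order along 3L is hid, grim, rpr, skl. Between hid and grim, whose products both bind Diap1, it lists 4 other protein-coding genes, CG7320, CheA75a, CG5103 and CG13700. Between grim and rpr, and between rpr and skl, it lists 0 protein-coding genes. Genes of other kinds are left out of these counts. Release 5 positions of the genes were not used here, so which region or free base belongs to which gene is not stated, and the placement of the 4 genes inside the window rests on the definition of the window.

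H3K27me1 regions in the cell death gene window were few, narrow and lay in the first 86.7 kb of the window in each of the 3 lists. They covered 8.00 kb of it in replicate 1 and 5.70 kb in replicate 2, which is 2.86% and 2.03% of its bases. The mean was 2.45% ± 0.58 (SD, n = 2). In the same lists 21.3% and 17.2% of the bases of arms 2L, 3L, 3R and X were covered, so the window held 0.13 ± 0.01 times the arm level (SD, n = 2). The whole-series list covered 20.4 kb of the window, or 7.28%, against 31.7% of those arms. Over the arms, 280 kb held on average 17.9 regions in replicate 1 and 14.8 in replicate 2, against the 4 and 3 counted here.

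**Figure D1:**
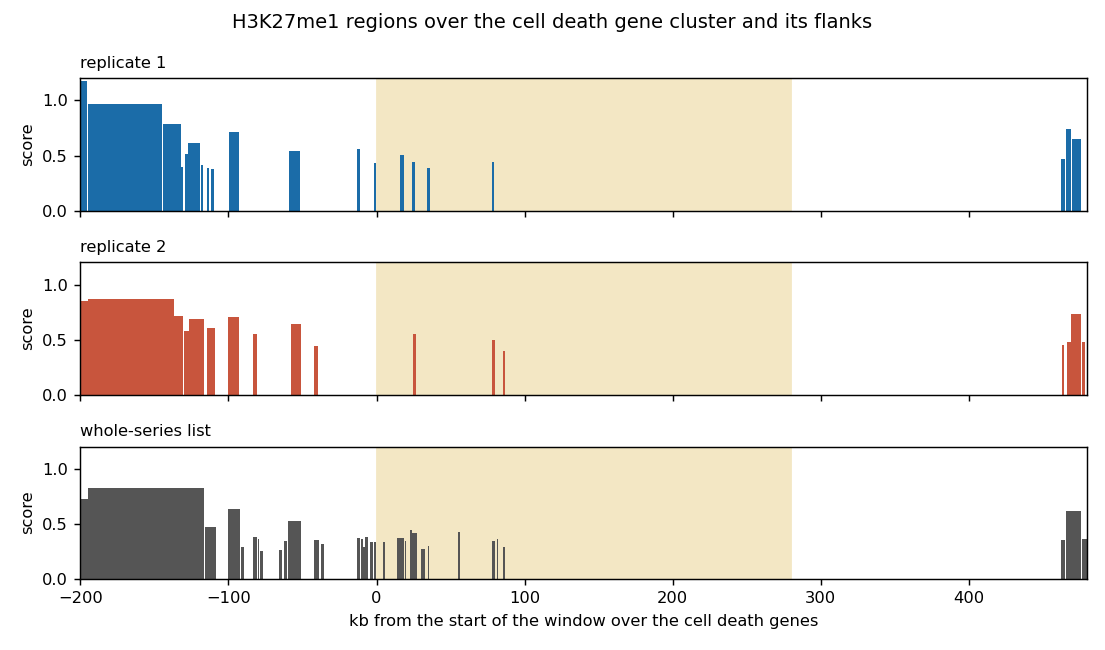
Enriched regions of each list as bars, with the position in kb from the window start on the x axis, the width of each bar the width of the region and its height the deposited score. The shaded band is the window over hid, grim, rpr and skl; after 86.7 kb it holds no bar in any of the 3 lists, and bars return 462 kb from its start.

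Replicate 1 placed 4 regions in the window. The first, 3L:18165779-18168805, was 3027 bp wide and had a score of 0.50, the highest of the 4. The second, 3L:18174031-18175967, had a score of 0.44. It was followed by 3L:18184384-18185881, the weakest with a score of 0.39. The last, 3L:18227759-18229296, stood apart from these, 41.9 kb further on, with a score of 0.44. The first region began 15.8 kb inside the window, and the nearest one outside it, 3L:18148474-18149902 with a score of 0.44, ended 97 bases before the window.

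Replicate 2 placed 3 regions there. The region 3L:18174345-18176592 was 2248 bp wide and had a score of 0.55, the highest in the window in either replicate. The region 3L:18227667-18229669 had a score of 0.50, and 3L:18235169-18236613, the last before the free stretch, one of 0.39. The closest region of replicate 2 before the window, 3L:18107583-18110212, ended 39787 bases short of it. This replicate therefore left the 64.1 kb around the window start free, a stretch that held 3 whole regions of replicate 1.

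The replicates marked the same DNA at a pair of places in the cell death gene window. At the first, the regions starting at 18174031 and 18174345 shared 1623 bases, and their starts differed by 314 bp and their ends by 625 bp. At the second, the regions starting at 18227759 and 18227667 shared 1538 bases, and their starts differed by 92 bp and their ends by 373 bp. Over 2810 pairs of replicate regions on the arms that overlapped one another alone, the median differences were 300 bp at the start and 307 bp at the end. Of the 2 pairs in the window, 1 start difference lay above the median and 1 below it, and both end differences lay above it.

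The remaining 3 replicate regions were found by 1 replicate only. In all, 2 of 4 regions of replicate 1 overlapped replicate 2, where 67.7% of its regions on the arms did, and 2 of 3 regions of replicate 2 overlapped replicate 1, against 84.0%. Among regions of the arms no wider and no higher in score than the widest and the highest of the window, 51.4% of replicate 1 and 72.0% of replicate 2 overlapped the other list. With counts this small the shares in the window are near those of such weak and narrow regions. In bases, 3.16 kb were covered in both replicates and 10.5 kb in either, a Jaccard index of 30.0%. The index was 57.6% over the 4 arms, and 7.20% of 280 kb windows with a covered base had one as low.

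The whole-series list held 11 regions in the cell death gene window, from 1005 to 4574 bp wide. Of these, 2 overlapped both replicates, where 37.9% of its regions on the arms did, and 6 overlapped neither, against 35.2%. The 2 found by both replicates were 3L:18174028-18177045, with a score of 0.41, and 3L:18227641-18229655, with a score of 0.35. The widest region, 3L:18164150-18168723, overlapped replicate 1 for 64.4% of its length and replicate 2 for none. The last, 3L:18235108-18236679, was 91.9% covered in replicate 2 and not in replicate 1. The highest score, 0.44, belonged to 3L:18172866-18174011, which overlapped neither replicate. About as many bases of this list in the window lay outside both replicates, 10316, as were covered by either replicate, 10535. The bases of this list outside both replicates were not counted over the arms, so whether this is usual for the list is not known.

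The other 6 regions of the whole-series list were 3L:18154393-18155796, 3L:18169220-18170224, 3L:18180181-18182592, 3L:18184590-18185711, 3L:18205166-18206194 and 3L:18231033-18232114. Of these, the region starting at 18184590 lay wholly inside a region of replicate 1, and the other 5 overlapped neither replicate. Their scores ran from 0.27, for the region starting at 18180181, to 0.43, for the one starting at 18205166. The 11 regions were unevenly spread: 7 began within 35 kb of the window start and 4 beyond it.

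Scores in the cell death gene window were on the low side of each list. The score is the authors' enrichment value for a region, whose scale is not stated, so differences are given and not folds. The median score in the window was 0.44 in replicate 1 and 0.50 in replicate 2, against 0.58 and 0.56 over the arms. The difference was -0.10 ± 0.05 (SD, n = 2), and -0.06 in the whole-series list. All 7 replicate regions of the window lay below the median score of their list on the arms, between percentiles 6.20 and 29.5 in replicate 1 and between 4.61 and 45.7 in replicate 2. In the whole-series list 8 of 11 did. Widths were modest too, with medians of 1738 and 2003 bp in the replicates against 2249 and 2210 bp over the arms. The narrowest regions of the window, 1498 and 1445 bp, lay at width percentiles 15.9 and 12.6 of their lists, whose narrowest region had 1301 bp. The widest, 3027 and 2248 bp, lay above the median width, at percentiles 64.8 and 51.2.

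**Figure D2:**
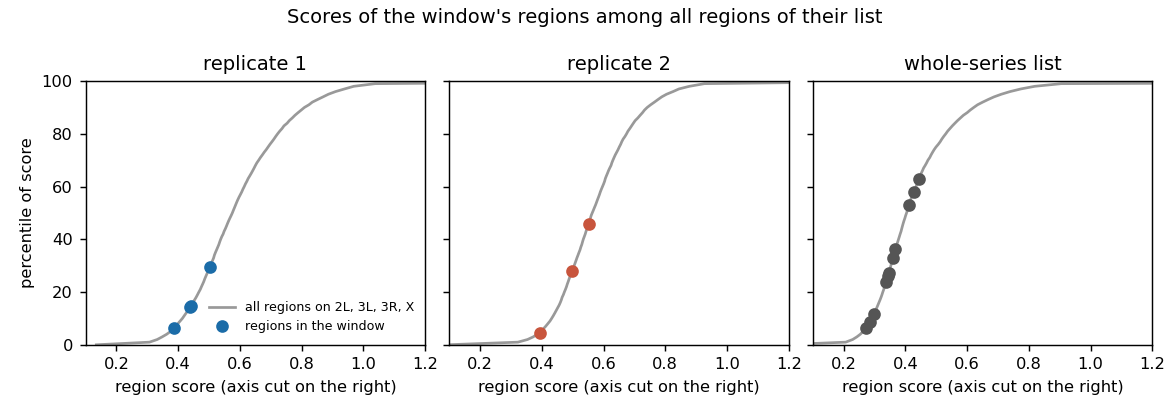
Score of each region in the window (points) on the curve of all regions of the same list on 2L, 3L, 3R and X, with the score on the x axis, cut on the right, and its percentile on the y axis. The points of both replicates lie below percentile 50, and those of the whole-series list reach percentile 62.7.

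Most of the window set for hid, grim, rpr and skl was free of H3K27me1 regions. In replicate 1 the last covered base was 18229296, which left 201 kb free up to the window end, or 71.7% of the window. In replicate 2 it was 18236613, leaving 193 kb or 69.1%. The whole-series list stopped at 18236679, with 193 kb or 69.0% free. The replicates differed in this edge by 7.32 kb, the place of the region starting at 18235169 that replicate 1 lacked. The free stretch did not stop at the window: it ran on for another 182 kb, ending at 18612356 and 18612604 in the replicates and at 18612349 for the series as a whole. That far end differed by 248 bp between the replicates and by at most 255 bp among the 3 lists.

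The whole stretch measured 383 kb by replicate 1 and 376 kb by each of the other lists. It was the longest between regions on 2L, 3L, 3R and X in each list taken alone. The typical distance between neighbouring regions was far shorter, with medians of 3.36, 3.87 and 2.31 kb. How far it exceeded the next longest depended on the list. In replicate 1 the next measured 370 kb, on 2L from 16915868 to 17286130, a difference of 12.8 kb. In replicate 2 the next measured 349 kb, on 3R from 2286295 to 2635063. In the whole-series list it measured 296 kb, also on 3R, from 2287006 to 2583235. Stretches of 200 kb or more numbered 20 in replicate 1, 38 in replicate 2 and, over the whole series, 9.

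**Figure D3:**
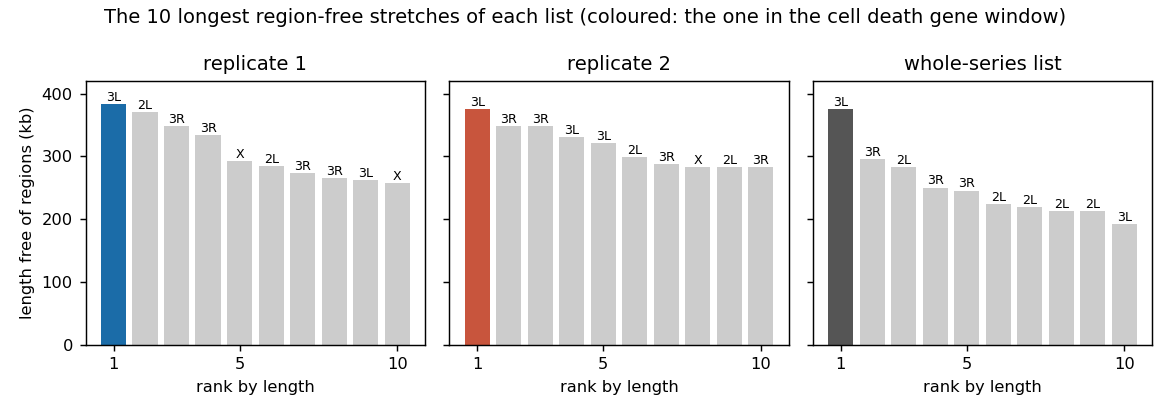
Length in kb of the 10 longest stretches without a region in each list, ordered by rank, with the arm above each bar. The coloured bar is the stretch that begins in the cell death gene window; it is first in each list, at 383, 376 and 376 kb.

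The part of the window before the free stretch holds all its covered bases, since it ends at the last of them. It measured 79.3 kb in replicate 1 and 86.6 kb in replicate 2, and 10.1% and 6.58% of it lay inside regions, a mean of 8.33% ± 2.48 (SD, n = 2). In the whole-series list 23.5% of 86.7 kb was covered. Each of these shares was below that of the arms in the same list, which was 21.3%, 17.2% and 31.7%. Of arm windows of the same length, 35.2%, 33.8% and 41.1% were covered no more. Those windows were placed without regard to region ends, while this part ends on a covered base, which tends to raise its share. The comparison is thus not between like stretches. The medians of those windows were 17.3%, 12.7% and 28.8%.

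Set beside all windows of 280 kb on 2L, 3L, 3R and X, moved in 10 kb steps, the cell death gene window was near the lower end. Of 9679 windows, 2.88% were covered no more than it by replicate 1 and 3.39% by replicate 2. By the whole-series list the share was 3.78%. The median window was covered at 19.7%, 15.4% and 30.4%. Windows with no covered base at all numbered 34, 38 and 12, and the window over the 4 genes was not one of them. These empty windows do not all lie elsewhere. Some are shifted windows that overlap it, inside the free stretch that begins in it, and in the whole-series list most are. These windows overlap heavily, and 348 windows of this length could be laid on these arms without sharing any. For the mean of the replicates, the 271 windows covered no more formed 28 separate stretches, and 20 of these windows overlapped the window described here.

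**Figure D4:**
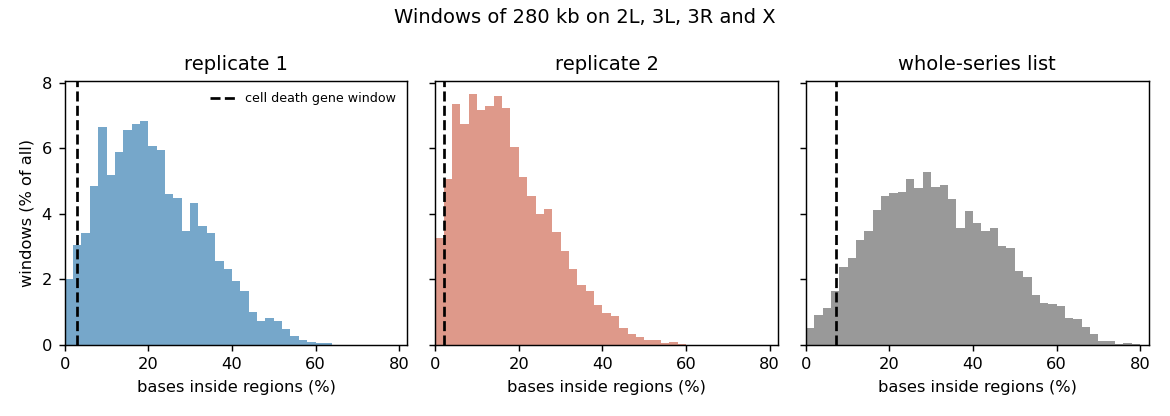
Share of the 9679 windows of 280 kb (y axis) by the percent of their bases inside regions (x axis, bins of 2 points), for each list. The dashed line marks the window over hid, grim, rpr and skl, at 2.86%, 2.03% and 7.28%.

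The flanks of the cell death gene window differed from each other. The 200 kb before it were covered at 50.2% in replicate 1 and 53.3% in replicate 2, a mean of 51.7% ± 2.2 (SD, n = 2). Of windows of that length on the arms, 1.42% reached the mean. The 200 kb after it were covered at 6.12% and 6.45%, a mean of 6.28% ± 0.24 (SD, n = 2), and 16.3% of windows were covered no more. The whole-series list gave 65.9% before and 8.01% after. The Jaccard index of the replicates was 85.8% in the left flank and 73.5% in the right flank, against the 30.0% of the window. This index depends on the width and number of regions, and the flanks held longer regions than the window. Overlap at like width was not compared between these parts.

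The left flank was covered mainly at the end far from the window. Its longest region was 50.1 kb in replicate 1 and 57.6 kb in replicate 2, with scores of 0.97 and 0.87, and began 195 kb before the window in both. In pieces of 40 kb towards the window, the replicate means were 99.2% ± 0.2, 95.8% ± 1.4, 38.8% ± 11.7, 20.8% ± 2.8 and 4.06% ± 4.99 (SD, n = 2). Inside the window they were 10.9% ± 7.4, 4.43% ± 0.82 and 1.81% ± 2.55, followed by pieces with no covered base. The largest drop between neighbouring pieces was from 95.8% to 38.8%, before the window, and lower values without a steady order followed. The spread between replicates was too wide to order the last pieces before the free stretch.

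**Figure D5:**
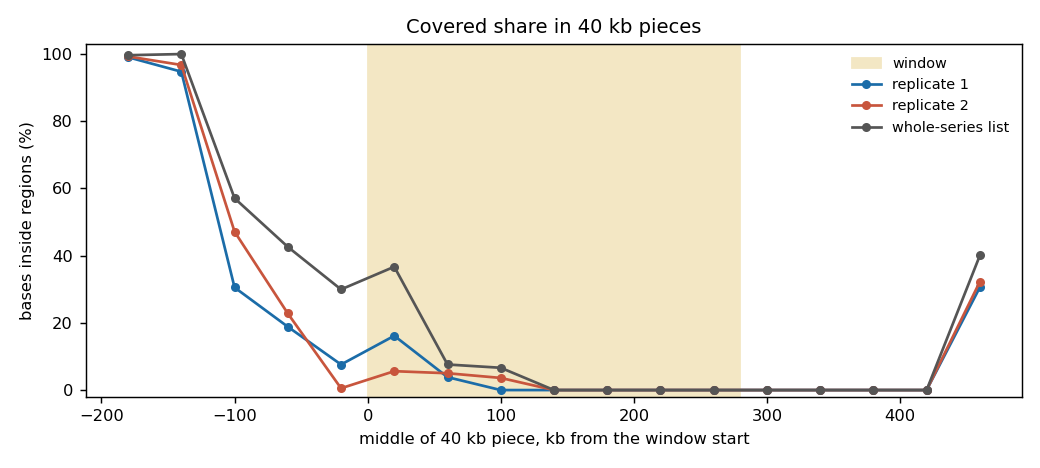
Percent of bases inside regions in pieces of 40 kb, placed at their middle in kb from the window start, for each list. From left to right the replicates fall from 99.1% and 99.3% to 0 within the shaded window, stay at 0 past its end and stand at 30.6% and 32.2% in the last piece.

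The ends of the free stretch were unlike in the replicates, and less so in the whole-series list. In the 100 kb before it, 11.04% of bases were covered in replicate 1 and 5.70% in replicate 2, so coverage changed by 8.37 percentage points on average at the edge inside the window. Of 9711 positions on the arms, 61.5% had a change at least as large in either direction. In the whole-series list the change at this edge was 29.6 points, which 23.3% of positions reached. In the 100 kb after the far end, 25.8% and 25.2% were covered, a change of 25.5 points on average that 19.3% of positions reached. The whole-series list covered 37.8% there, which 13.4% of positions reached as a change. The first region past the stretch began at 18612357 in replicate 1, with a score of 0.47, and at 18612605 in replicate 2, with a score of 0.45. It was followed within 10 kb by higher ones, of 0.74 and 0.65 in replicate 1 and 0.48 and 0.73 in replicate 2.

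Long free stretches of the whole-series list differed in the coverage beside them. Before the 296 kb stretch on 3R the replicates covered 60.5% of 100 kb on average, and after it 5.37%. Around the 283 kb stretch on 2L, from 14690928 to 14974156, they covered 27.5% before and 16.2% after. At the stretch that begins in the cell death gene window the corresponding values were 8.37% before and 25.5% after. Around the 224 kb stretch on 2L, from 15275028 to 15499521, they were 13.0% before and 3.06% after. Before the 213 kb stretch on 2L from 11285914 to 11499169 they covered 68.6%, and after it 8.59%. The 250 and 246 kb stretches on 3R had 5.49% and 5.37% before and 27.5% and 29.0% after. These were close to the values at the cell death gene window. Dense coverage directly beside a long free stretch was thus seen at the 296 kb stretch on 3R and the last-named 2L stretch, and not at each of the others. For the cell death gene window the densest coverage lay further out, beyond the first 100 kb of the left flank.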

How the data were processed

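Lists of enriched regions for 2 ChIP samples and for the whole series were used as deposited. Coordinates are those of FlyBase release 5, and every line gives a significantly enriched region, per the file headers. The submitters' processing notes name Bowtie 0.12.7 without its role. Caller, threshold, use of input and origin of the list for the series: not given in the sources used here. Column values are an enrichment score that the authors deposited, with no stated scale or normalization. The depth of the libraries is unknown, so no counting error is given.

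Covered bases were counted in the window, in 200 kb flanks and in windows of equal length in 10 kb steps on 2L, 3L, 3R and X. Regions were called shared from 1 bp of overlap. The regions named are every region touching the window, the longest of each replicate in the left flank and the first after the free stretch; further regions and stretches were named after their values were seen. The window, members and lists were chosen with earlier results of these data known, so ranks carry no p-value. A larger list of apoptosis genes was planned by name and could not be placed on release 5. The counting was tested on simulated data. Python 3.11.15, numpy 2.4.6 and matplotlib 3.10.9 were used.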

Additional observations from a re-analysis of the deposited data

How the results depend on the processing

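Of 68 recomputed values over 12 results, 28 moved by more than the SD between replicates or, for the count of shared regions, by more than 1.5 times. With n = 2, each replicate alone lies within the SD of their mean, so for averaged results its value could not count as moved. The Jaccard index has no SD, so any change of it counts. The score difference of -0.10 stayed within its SD but moved by over 1.5 times, to -0.06 in the whole-series list and -0.07 without replicate 1. No paired analysis was possible because no input list with values was analysed, so the shared replicate numbers of ChIP and input enter no test.

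Keeping each list from its median score up left 0 bases covered in the window and 0 shared regions. Its edge, score and overlap then had no value. The flanks held 45.9% and 4.15%, and 0.87% of windows were covered no more. Regions of 2 kb or more gave 1.30% for the window, 49.5% and 5.86% for the flanks and 3.42% of windows. With them the last covered base was 18168805 in replicate 1 and 18229669 in replicate 2, so their mean, 18199237, is an edge in neither list. The mean free length was 231 kb in the window and 415 kb in all. The Jaccard index was 0 and the shared regions 0. Joining regions within 1 kb, with the highest score kept, moved the right flank to 6.81%.

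With the whole-series list the window was covered at 7.28%, the flanks at 65.9% and 8.01%, the part before the free stretch at 23.5% and the step at 29.6 points, and 3.78% of windows were covered no more. Windows on 3L alone gave 2.35%. The window 50 kb shorter at each end gave 1.38%. Flanks of 100 kb gave 17.9% and 0% and flanks of 400 kb 38.8% and 23.7%, so their contrast depends on length.

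With each replicate alone the window ranged from 2.03% to 2.86%, the left flank from 50.2% to 53.3% and the right from 6.12% to 6.45%. The share of windows was 2.88% and 3.39%, both above the 2.80% of the replicate mean. The last covered base ranged from 18229296 to 18236613, the free length from 193 to 201 kb in the window and 376 to 383 kb in all. The part before it ranged from 6.58% to 10.1%, the step from 5.70 to 11.04 points and the score difference from -0.14 to -0.07. Sequence to which reads cannot be placed was not assessed in the free stretch, and the depth that would bound weak enrichment there is unknown.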
